A study of Homo sapiens with 7 samples.

Results

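The RNA exosome subunit genes are the 10 human genes EXOSC1 to EXOSC10, which encode the 9-subunit core of the RNA exosome and its nuclear exonuclease EXOSC10. Members were taken by gene symbol, with no measured value used, and all 10 were present among the 26175 genes of the RNA-seq table. Capped nascent RNA and steady-state RNA were measured in T-47D cells, a luminal breast cancer line, under 1 growth condition. In the study's methods the cells are T47D/A1-2, a T47D subline with added rat glucocorticoid receptor and an MMTV promoter driving luciferase from the genome, grown in 10% serum and moved to 5% charcoal-stripped serum for at least 24 h before harvest. The RNA-seq values are FPKM (fragments per kilobase of transcript, scaled to the number of mapped fragments), with 3 replicates merged into 1 value per gene, and the transcription start site (TSS) calls come from Start-seq replicate 1. With 1 merged value per gene, 1 library of calls and no second condition, no replicate error can be given and no difference was tested.

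The exosome degrades RNA from its 3′ end. Ring subunits are arranged around a channel, a cap of RNA-binding subunits sits on top of the ring, and the ring itself has lost catalytic activity, so that degradation is done by associated nucleases, EXOSC10 in the nucleus and DIS3. Among the best-known nuclear substrates are the short unstable RNAs transcribed upstream of, and antisense to, active genes. Start-seq maps the first base of short capped nascent RNA and so detects such transcripts at the moment of initiation, before degradation. A gene TSS is the called start of the gene itself, a uaTSS is an upstream antisense start called 1 to 1000 nts upstream, and a daTSS is a downstream antisense start called 1 to 2000 nts downstream on the opposite strand.

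A gene TSS was called for 9 of the 10 genes, out of 10391 gene TSSs in all, and these carried 5 uaTSSs and 2 daTSSs. The sequence around these calls is shown because the called base is what the calls report. Each line below runs 5′ to 3′ on the strand of the initiating RNA, from 19 nts upstream to the 11th transcribed base, and the capitals mark the positions −1 and +1. Sequence and coordinates are those of GRCh37 (hg19), and the sequences at the EXOSC4 calls and the EXOSC2 daTSS are not printed.
EXOSC1 gene TSS, chr10:99205724-99205753, minus strand: cagcggcaatcatggcgcCAcctgtgagat
EXOSC2 gene TSS, chr9:133569148-133569177, plus strand: agctgcgcctgcgcaactCAttggcgccaa
EXOSC5 gene TSS, chr19:41903245-41903274, minus strand: aggcggaagtgacaactgCAgccgcacgtg
EXOSC6 gene TSS, chr16:70285833-70285862, minus strand: aagaaccagtggatgcggCAgggcgttggg
EXOSC8 gene TSS, chr13:37574495-37574524, plus strand: aaaaaagttcaggtttctCAtgtgttggag
EXOSC10 gene TSS, chr1:11159824-11159853, minus strand: gtcggcgaccagcgcaacCAaatccgacgg
EXOSC3 gene TSS, chr9:37785041-37785070, minus strand: accggaaacggtgtttggTGgagcccgcga
EXOSC9 gene TSS, chr4:122722466-122722495, plus strand: cgccttgatgacgtaattTTcctgcgcctc
EXOSC2 uaTSS, chr9:133568908-133568937, minus strand: cgttgtgtggcgtgtgacTTtttaccaaaa
EXOSC3 uaTSS, chr9:37785127-37785156, plus strand: ccggcagtagcggtccgtTGgattcggacc
EXOSC9 uaTSS, chr4:122722431-122722460, minus strand: gcggaaaaatgggaaatgGCttgggctgca
EXOSC10 uaTSS, chr1:11159940-11159969, plus strand: ggacgcgtgcgcaccacgCAtgcgccaggt
EXOSC10 daTSS, chr1:11159470-11159499, plus strand: gtggcgagcgcgacgtcgCAagggctaggg

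Most of the gene TSSs printed begin at the same dinucleotide, C followed by an initiating A. Over the 9 gene TSSs, CA stood at −1 and +1 in 6 (66.7%), against 30.3% of all 10391 gene TSSs. A pyrimidine followed by a purine, the common initiation dinucleotide, was found at 7 of 9 (77.8%) against 66.1% of all. EXOSC3 had TG, EXOSC9 had TT, and EXOSC4 had no pyrimidine-purine step at the called base. Allowing the step 1 nt to either side left the members at 7 of 9, while the share of all gene TSSs rose to 75.5%. The longer initiator form, CA with A or T at +3, was present at EXOSC2 and EXOSC10, 2 of 9 (22.2%) against 18.8% of all. No member had TATA followed by A or T starting between −35 and −24, an element found at 3.003% of all gene TSSs. At the 5 uaTSSs the pyrimidine-purine step was present in 3, against 64.7% of all uaTSSs, and CA in 1, that of EXOSC10, against 29.9%. The daTSS of EXOSC10 began at CA, which 39.6% of all daTSSs did.

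Steady-state RNA of the exosome subunits was spread over a narrow range in the upper part of the table. All 10 genes had an FPKM of at least 10, against 28.1% of all genes in the table. Their median was 37.3, at the 88.7th percentile of all genes, whose median was 0.528 because 7888 genes were listed at 0. Among the 12271 genes with an FPKM of at least 1, which had a median of 14.4, the members' median stood at the 75.9th percentile. The highest subunit exceeded the lowest 3.20-fold. In bulk RNA such a level does not separate the share of cells that express a gene from the RNA per cell.

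The cap subunits bind RNA at the entry of the channel through S1 and KH domains. EXOSC1 had an FPKM of 53.1 and EXOSC2 an FPKM of 41.0. EXOSC3 had an FPKM of 22.3 and was the lowest of the 10 genes. The cap therefore held both the second highest and the lowest level, and its median was 41.0. The annotation lists processed copies of EXOSC3, named EXOSC3P1 and EXOSC3P2, so how its reads were divided is uncertain.

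Ring subunits resemble bacterial RNase PH without its activity. EXOSC4 led at an FPKM of 71.4, the highest of all subunits. EXOSC7 followed at 41.5 and EXOSC9 at 33.7. These 3 were the ring genes above the ring median of 31.9. EXOSC5 had an FPKM of 30.04, EXOSC8 of 25.6 and EXOSC6 of 25.2, and the 6 ring genes spanned 2.83-fold. EXOSC10, the nuclear 3′-to-5′ exonuclease, had an FPKM of 42.9.

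In descending order the subunits ran EXOSC4, EXOSC1, EXOSC10, EXOSC7, EXOSC2, EXOSC9, EXOSC5, EXOSC8, EXOSC6 and EXOSC3. The largest steps in that order were from EXOSC4 to EXOSC1 (1.35-fold), from EXOSC1 to EXOSC10 (1.24-fold) and from EXOSC2 to EXOSC9 (1.22-fold). EXOSC10 exceeded EXOSC7 only 1.03-fold, EXOSC7 exceeded EXOSC2 1.01-fold, and EXOSC8 exceeded EXOSC6 1.01-fold. The merged values hold no spread with which to say which of these neighbours differ. EXOSC8 shares a listed locus and overlapping exons with SUPT20H, a gene on the other strand with an FPKM of 16.1, and EXOSC9 does so with CCNA2, which encodes cyclin A2 and had an FPKM of 50.1. The labels describe stranded RNA libraries, but whether strand was used in the counting is not given in the sources used here, so the values of these 2 subunits may include reads of the partner. EXOSC4 shares its listed locus with the microRNA gene MIR6847.

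The called gene TSSs lay close to annotated starts, with 1 exception. A call on the strand of the gene, within its listed locus widened by 1000 nts, was found for 9 of 10 members (90.0%, exact 95% interval 55.5 to 99.7%, counting error only). The same rule gave a call for 48.0% of 23021 genes of the table, and for 87.9% of the 7199 of these with an FPKM of at least 10. Read against genes of like level, the members' share was near the background. That background counts some calls for more than 1 gene, since 11058 genes of the table had a call among 10391 gene TSSs. EXOSC2, EXOSC5 and EXOSC6 were called at the very base of an annotated transcript start. The call of EXOSC1 lay 4 nts upstream of the nearest annotated start, and those of EXOSC3 and EXOSC9 lay 5 nts downstream. EXOSC4 was called 21 nts downstream and EXOSC10 77 nts downstream of the nearest annotated start.

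EXOSC8 was the exception. Its call at chr13:37574514 lay 164 nts upstream of the locus listed in the RNA-seq table and 389 nts upstream of the nearest annotated start of the gene. This call still lay inside the annotated gene, which begins at chr13:37572953. It would not have been found with the locus left unwidened, and neither would the EXOSC6 call, 10 nts outside its listed locus. Without widening, 7 of the 10 genes had a call. EXOSC7 had no called gene TSS on its strand although its FPKM was the fourth highest of the subunits. This was not particular to EXOSC7. Among the comparison complexes and luminal markers described below, CCT7 (FPKM 167), PSMB5 (86.0), PGR (68.5) and KRT8 (1142) also had none.

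Upstream antisense initiation was called at 5 of the 9 gene TSSs, those of EXOSC2, EXOSC3, EXOSC4, EXOSC9 and EXOSC10. This is 55.6% (exact 95% interval 21.2 to 86.3%), beside 53.1% of all gene TSSs. A daTSS was called at 2 of 9 (22.2%, interval 2.81 to 60.01%), beside 28.4% of all. Both daTSSs, at EXOSC2 and EXOSC10, were at genes that also had a uaTSS, a combination found at 17.5% of all gene TSSs. Neither antisense call was made at 4 of 9 (44.4%, interval 13.7 to 78.8%), those of EXOSC1, EXOSC5, EXOSC6 and EXOSC8, beside 35.9% of all. In each case the share over all gene TSSs lay inside the counting interval of the members.

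Upstream antisense starts of the members lay 44 to 249 nts from the gene TSS. The uaTSS of EXOSC9 was 44 nts upstream, at the 3.44th percentile of all uaTSS distances. EXOSC3 had its uaTSS at 95 nts (percentile 14.2) and EXOSC10 at 125 nts (24.4). EXOSC4 followed at 146 nts (32.2) and EXOSC2 at 249 nts (61.7). All but that of EXOSC2 were thus closer than the median over all 5519 uaTSSs, which was 200 nts with quartiles at 127 and 329.5 nts, and the members' median was 125 nts.

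The whole stretch between the divergent starts of EXOSC9 is short enough to print. It shows how little sequence separates them, with the base of each start in capitals, that of the uaTSS first and read here on the strand of the gene.
EXOSC9 uaTSS to gene TSS, chr4:122722441-122722485, plus strand: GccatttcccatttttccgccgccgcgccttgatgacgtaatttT
Neither end begins at a pyrimidine-purine step, as the TT and GC of the 2 EXOSC9 lines above show.

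Downstream antisense calls were both intronic, where the paper places a majority of all daTSSs. The paper found a similar share in introns after shuffling gene models at random, and so no significant enrichment there. The EXOSC10 daTSS at chr1:11159489 lay 345 nts downstream (percentile 28.4 of all daTSS distances), beyond an exon 1 that ended 56 nts from the gene TSS. The EXOSC2 daTSS lay 1008 nts downstream (percentile 85.2), beyond an exon 1 that ended 133 nts from the gene TSS. The 30 bases that begin at this EXOSC2 call occurred 4 times in the reference genome, against once for each of the other 15 calls of the members, and more than 1 copy was found for 0.271% of all daTSSs. Per the study's methods, only uniquely mapped fragments entered the calls. Whether these copies had a part in the call was not tested. All 2956 daTSSs had a median distance of 507 nts, so 1 member lay on either side of it. Both antisense starts of EXOSC10 fell inside an annotated antisense gene, EXOSC10-AS1. The uaTSS of EXOSC3 fell in an intron of longer annotated transcripts of EXOSC3 itself and of a read-through gene, ENSG00000255872. That of EXOSC4 fell inside an annotated noncoding RNA gene, ENSG00000255224, and those of EXOSC2 and EXOSC9 fell in no annotated gene. No share of all antisense starts inside annotated genes is given here for comparison.

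Of the 4 subunit genes with neither antisense call, 2 had the called start of another gene within 1000 nts upstream on the opposite strand. EXOSC8 had one at 1050 nts, beyond the 1000 nts in which uaTSSs are called. A uaTSS is called on the strand opposite the gene, where the start of a divergent neighbour is called as a gene TSS of its own; whether this bears on the missing uaTSSs was not tested. Over the 9 members, 1000 nts upstream or less on the opposite strand held another called gene TSS at 2 (22.2%), beside 11.5% of all gene TSSs. Both were among the 4 members without a uaTSS, beside 20.6% of all gene TSSs without one, and none was among the 5 with a uaTSS, beside 3.52% of all gene TSSs with one. Within 2000 nts the count among those without a uaTSS was 3 of 4 (interval 19.4 to 99.4%), beside 21.6%. The share over all gene TSSs lay inside the members' interval in each case.

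EXOSC1 lay 201 nts from the gene TSS of ZDHHC16, a palmitoyltransferase gene with an FPKM of 73.5 against 53.1 for EXOSC1. EXOSC5 lay 468 nts from that of BCKDHA, which encodes a subunit of branched-chain ketoacid dehydrogenase and had an FPKM of 48.3 against 30.04 for EXOSC5. EXOSC8 lay 1050 nts from ALG5, a gene of N-glycan assembly with an FPKM of 31.8 against 25.6 for EXOSC8. In each of these 3 pairs the neighbour had the higher level. The uaTSS of ALG5 was called 920 nts upstream of the EXOSC8 gene TSS, on the strand of EXOSC8.

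EXOSC7, which had no call, had its listed start 124 nts from the gene TSS of ZDHHC3, another palmitoyltransferase gene, with an FPKM of 13.4 against 41.5 for EXOSC7. Here the subunit without a called start had the higher steady-state level of the pair, and no uaTSS was called for ZDHHC3. EXOSC6 was the member with neither an antisense call nor a called divergent neighbour. Its gene is annotated as 1 exon, and the listed locus of AARS, an alanyl-tRNA synthetase gene on the same strand with an FPKM of 112.9, ended 454 nts upstream of the EXOSC6 gene TSS.

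The shortest of the called divergent pairs, EXOSC1 with ZDHHC16, is printed for the stretch free of annotated exons, with the side of ZDHHC16 first and that of EXOSC1 last. Capitals mark matches to a GC box, CCAAT boxes and an E-box on either strand.
ZDHHC16 to EXOSC1, chr10:99205775-99205926, minus strand: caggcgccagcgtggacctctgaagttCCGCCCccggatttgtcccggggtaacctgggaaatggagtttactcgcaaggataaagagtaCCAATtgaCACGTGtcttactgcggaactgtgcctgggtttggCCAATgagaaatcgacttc

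Levels of subunits with and without a called uaTSS overlapped. The 5 with a uaTSS had a median FPKM of 41.0 (22.3 to 71.4), and the 4 with a gene TSS but no uaTSS had a median of 27.8 (25.2 to 53.1). EXOSC3, the lowest gene, was among those with a uaTSS.

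Motif cores were searched on both strands from −250 to +50 of each gene TSS, and a match is a description of letters only. A GC box (GGGCGG) was present at 7 of 9 members, beside 72.4% of all gene TSSs, and was missing from this window at EXOSC8 and EXOSC9. The CCAAT box (CCAAT) was present at 5 of 9, EXOSC1, EXOSC2, EXOSC5, EXOSC9 and EXOSC10, beside 35.3% of all. EXOSC2 held 4 CCAAT matches, beginning at −197, −142, −106 and +1, and 2 matches to the core AANATGGC, which YY1 binds, at −133 and +10. The last match of each kind lay in the first transcribed bases. EXOSC10 held the other AANATGGC match at −57, so 2 of 9 genes had it, beside 10.5% of all.

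Rarer cores were scattered over the genes. The E-box CACGTG was found at EXOSC1 and EXOSC5, 2 of 9, beside 9.55% of all gene TSSs. The ETS core CCGGAAG was found at EXOSC4, beside 19.7% of all, and the NRF1 core GCGCATGC at EXOSC10, beside 5.49%. EXOSC9 had the core TGACGT of a cAMP response element beginning at −11, beside 11.2% of all, and this search was added after the sequence had been seen. EXOSC8 matched none of the cores in this window. None of the searched words was held by all 9 genes.

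Base composition varied from gene to gene. From −500 to +500, EXOSC6 had the highest GC content at 67.0% and EXOSC4 had 66.8%. EXOSC9 had the lowest at 51.0%, at the 6.29th percentile of all gene TSSs, with EXOSC5 at 54.4%, EXOSC2 at 54.7% and EXOSC8 at 56.5%. The members' median was 60.8% against 63.0% for all gene TSSs. The observed to expected ratio of CpG ran from 0.642 at EXOSC2 to 0.902, with a median of 0.808 against 0.782 for all.

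The genes of proteins known to work with or beside the exosome had a lower median level and a wider spread. The list also holds the nucleases XRN1 and XRN2, which degrade RNA from the 5′ end, and DIS3L2, which acts without the exosome. The 22 genes of this list, called cofactors here, had a median FPKM of 14.2, at the 76.4th percentile, with 14 of 22 at 10 or more, and spanned 117-fold against 3.20-fold for the subunits. The SD of log2(FPKM + 0.1) over genes was 1.52 for the cofactors and 0.524 for the subunits. Every core subunit was above DIS3, the processive nuclease of the nuclear complex, at an FPKM of 11.3, and above its cytoplasmic counterpart DIS3L at 7.94. EXOSC10 was thus 3.80 times the level of DIS3, whose listed locus overlaps those of BORA, MZT1 and PIBF1. The helicase MTR4, listed as SKIV2L2, had an FPKM of 55.9, higher than all subunits but EXOSC4. Its listed locus overlaps those of PPAP2A, RNF138P1 and MIR5687. Whether these overlaps changed the values was not tested. MPHOSPH6, which binds the nuclear exosome together with EXOSC10, had 87.5, and C1D, the partner of EXOSC10 in the nucleus, had 8.20.

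Adaptor complexes bring the helicase to its targets. In TRAMP, the noncanonical poly(A) polymerase gene PAPD5 had the lowest FPKM of the list at 1.72, and ZCCHC7 had 7.04. In NEXT, the nuclear exosome targeting complex, RBM7 had 7.08 and ZCCHC8 8.30. In PAXT, which connects to polyadenylated RNA, ZFC3H1 had 15.6 and PABPN1 8.80. These TRAMP, NEXT and PAXT genes were all below the lowest core subunit, EXOSC3. The cap-binding and SKI groups held genes on both sides of EXOSC3. Of the cap-binding group, NCBP2 was the highest of the list at 201, SRRT had 44.1 and ZC3H18 28.0, while NCBP1 had 14.9. Of the genes listed for the SKI complex, WDR61 had 43.3, SKIV2L 26.4, TTC37 15.7 and HBS1L 13.2.

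Of the 22 cofactor genes, 19 had a called gene TSS in the widened locus. ZCCHC7 and DIS3L2 had none, and SKIV2L is listed on an alternate haplotype of chromosome 6 that was not searched. A uaTSS was called at 15 of 19 (78.9%, exact 95% interval 54.4 to 93.9%), beside 53.1% of all gene TSSs and 5 of 9 subunits. A daTSS was called at 6 of 19 (31.6%, interval 12.6 to 56.6%), beside 28.4% of all. Without XRN1, XRN2 and DIS3L2, a uaTSS was called at 13 of 17 (76.5%) and a daTSS at 4 of 17 (23.5%). The call in the PABPN1 locus lay 14587 nts upstream of the annotated start of PABPN1, in a locus merged with BCL2L2, and by annotated starts 14 of 18 cofactors had a uaTSS. DIS3, like EXOSC1 and EXOSC5, had a divergent gene TSS close by, at 252 nts, and neither antisense call. The MTR4 gene had both a divergent gene TSS at 353 nts and a uaTSS at 62 nts.

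Beside 2 other complexes of fixed composition, the exosome had a lower median level and a spread between theirs. The 8 genes of the TCP1 ring chaperonin, which folds actin and tubulin, had a median FPKM of 168 and spanned 2.29-fold. The 14 genes of the 20S proteasome, the proteolytic core of the proteasome, had a median of 162 and spanned 13.8-fold. The SD of log2(FPKM + 0.1) was 0.438 for the chaperonin, 0.524 for the exosome and 1.07 for the proteasome. The highest subunit of the exosome, EXOSC4, was below all 8 chaperonin genes, whose lowest was at 116. By antisense calls the 3 complexes gave 5 of 9, 4 of 7 and 8 of 13 gene TSSs with a uaTSS for the exosome, chaperonin and proteasome in turn, beside 53.1% of all gene TSSs, and 2 of 9, 1 of 7 and 5 of 13 with a daTSS, beside 28.4%.

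The marker genes matched the label of the line. All 9 luminal epithelial markers had an FPKM of at least 44.1, up to 1142 for the keratin gene KRT8, whereas PTPRC, CD3E and PECAM1, markers of leukocytes, T cells and endothelium, lay between 0 and 0.0208. The mesenchymal genes VIM and COL1A1 had 0.864 and 8.82. The score column of every TSS call was 0, so the reads behind a single call are not given and calls could not be ranked by them.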

How the data were processed

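Calls from Start-seq replicate 1 and FPKM from 3 merged RNA-seq replicates were used; the series' other libraries (FAIRE-seq, MNase-seq and the second Start-seq library) are not analysed here. The authors deposited FPKM values computed with Cufflinks 2.2.1 after alignment with TopHat2 2.0.4, and TSS positions (hg19) called from Start-seq reads trimmed with cutadapt 1.2.1 and aligned with Bowtie 0.12.8, per the submitters' processing notes. The deposited score of each call was 0 throughout, so the files give no reads per call; per the study's methods, a call needed at least 5 reads at a position. Per the study's methods, daTSSs close to an annotated start on the same strand were filtered by the authors. No column of unused per-sample values was present (0). Members were set by gene symbol and not by a measured value. The choice of this group, the lists and the searches was made with earlier results of these data known. Genes were joined to GENCODE by symbol on GRCh37, and calls to genes by strand and listed locus widened by 1000 nts. All 10391 gene TSSs lay within GRCh37 chromosomes, at a median of 10 nts from an annotated start. Named genes were all members, their divergent neighbours and, from the cofactor list, the highest, the lowest, those without a call, and the helicase and catalytic genes. Further genes were named after their values were seen. Among them were the other adaptors, the cap-binding and SKI genes, MPHOSPH6, C1D, AARS, the overlapping genes, and comparison and marker genes without a call. Percentile ranks, exact Clopper-Pearson intervals (95%), motif matches, GC content and genome copies of 30-base words were computed with Python 3.11.15, numpy 2.4.6, pandas 2.3.3, scipy 1.17.1 and pysam 0.24.0; steps were tested on simulated data. Alternatives covered the gene filter, locus widening, distance limits, windows and pseudocount. Sequences at 3 calls are not reported here.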

Additional observations from a re-analysis of the deposited data

How the results depend on the processing

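Of 32 alternatives, 26 left the value within its counting interval, its spread between members or 1.5 times its count. The members' median FPKM moved from the 88.7th percentile of all genes to 83.8 among genes above 0, to 75.9 among genes with an FPKM of at least 1, and to 89.7 without EXOSC8 and EXOSC9, which was added after seeing the data. The share of member gene TSSs with a CCAAT box rose from 55.6% to 88.9% (8 of 9) in a window from −500 to +100, in which the share over all gene TSSs was 51.1%. The median GC content moved from 60.8% to 65.5% from −100 to +100, and that of all gene TSSs from 63.0% to 68.0%. The median FPKM of the cofactors moved from 14.2 to 14.9 without XRN1, XRN2 and DIS3L2, which was also added after seeing the data. With daTSSs limited to 1000 nts, a daTSS was called at 1 of 9 members (11.1%, all gene TSSs 24.1%). With no other gene TSS within 5000 nts, the count was 2 of 5 (40%, all 32.9%). The members' share thus fell on either side of that of all gene TSSs. Counting gene TSSs of either strand in the members' loci gave 5 of 14 (35.7%, all 28.4%). That count is not a share of members, since it includes the daTSSs of ZDHHC16, SUPT20H and CCNA2. Each replicate could not be left out in turn, since the RNA-seq replicates were merged and the calls come from 1 library. No paired analysis was possible because the results come from no test. Reads per gene and per call are not in the files, so a gene without a call, such as EXOSC7, cannot be told apart from one under the limit of 5 reads at a position.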
